A study of Homo sapiens with 5 samples.

Results

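The comparison describes what 2 different microRNA mimics, the 5p and the 3p arm of miR-483, had in common against a scrambled control mimic. All 5 arrays of the series took part: 2 with miR-483-5p and 1 with miR-483-3p, pooled as 3 mimic arrays, against 2 with the scrambled control. Its members are the genes whose 3 mimic arrays all lay above, or all below, both control arrays. Of 19775 genes with a probe set of their own, 14600 had a mean signal over the 5 arrays at or above a floor of 28.1, and among these 1891 lay above and 2041 below both controls. The cells were MHH-ES-1, a human cell line established from an Ewing sarcoma and grown in medium with fetal bovine serum. Each culture received 1 mimic at 50 nM with a lipid reagent and was harvested 48 h later. All 3 groups share the transfection itself, and no culture without a mimic was analysed here. A difference shared by both arms therefore cannot be told apart from a difference that the scrambled sequence made on its own. The second array of a pair is called a repeat in the labels, with no word on a culture of its own. The spread that the p-values measure is therefore that of these arrays and may be technical. In the pooled comparison it also holds any difference between the 2 arms. The same is true of each SD given below over the 3 mimic arrays, which are not replicates of 1 treatment.

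MicroRNAs are short RNAs that Argonaute proteins carry to messenger RNAs, which they bind mainly through a few bases near their 5′ end, the seed, and whose level and translation they lower. The hairpin of miR-483 is encoded inside IGF2, the gene of an insulin-like growth factor, and its arms have different seeds and so different predicted targets. Ewing sarcoma cells are driven by the fusion transcription factor EWSR1-FLI1 and divide quickly, so their RNA is rich in cell division transcripts.

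The deposited signals are linear intensities, scaled so that each array has a trimmed mean of 150. Median signals over all probe sets were 39.2 to 44.9 in the mimic arrays and 43.2 and 44.4 in the controls. Across genes, which are not independent replicates, pairs of arrays correlated at r = 0.969 to 0.979 on the log2 scale. All 7 markers of Ewing sarcoma cells lay at or above the floor, among them CD99, a surface protein used in diagnosis, at 4381 to 5093 and FLI1 at 629 to 1130. Of 18 measured markers of blood, epithelial, muscle, neuroblastoma, endothelial and fibroblast cells, 14 lay under the floor, and the other 4 were DES, PECAM1, DCN and LUM. The ratio of the 3′ to the 5′ probe set of GAPDH, a sign of RNA integrity, was 1.06 to 1.10 in the mimic arrays and 0.996 and 1.02 in the controls. For ACTB the same ratio was 1.073 to 1.182 against 1.040 and 1.065. Both ratios thus moved with the groups compared here, and their part in the results below was not tested. Precision is limited throughout by the number of arrays.

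No probe set differed between the mimic and control arrays at a limma adjusted p under 0.05 (0 of 54613, or 0%). The lowest limma adjusted p was 0.625, and 3715 probe sets (6.80%) had an unadjusted p under 0.05, of which 1746 (3.20%) were higher and 1969 (3.61%) lower with the mimics. With 3 arrays against 2, an exact two-sided rank-sum test of a single gene cannot go below 0.2. Everything that follows is therefore a description of these 5 arrays, and "higher" and "lower" say where the signals lay. The 5 arrays can be split into 3 and 2 in 10 ways. For a given probe set, a single split puts the 3 above the 2, and a single split below. Shares of about that size thus arise without any difference between the groups. Lying outside both controls was common: every mimic array was above both controls for 5450 probe sets (9.98%) and below both for 6742 (12.3%). Among the genes at or above the floor these shares were 13.0% and 14.0%, and they are the background against which each gene group is read. This background is a share per gene. Genes of a list may vary together across arrays, so much of a list can fall on the same side in this single split. How often a list would reach its share without a difference between the groups was not tested. The same holds for list counts at an unadjusted p under 0.05. Under the floor, 372 of 5175 genes (7.19%) lay above and 606 (11.7%) below. Of all probe sets outside both controls 44.7% were higher, and 59.8% were when the medians of the arrays were set equal. Differences were small for most genes: the median log2 difference was -0.01, and 90% of genes lay between -0.37 and 0.35, all on the log2(signal + 32) scale, which understates differences of dim genes. The gap between the nearest mimic and the nearest control array exceeded 0.5 on that scale for 39 genes, 21 higher and 18 lower, and its median over the genes outside both controls was 0.09.

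**Figure D1:**
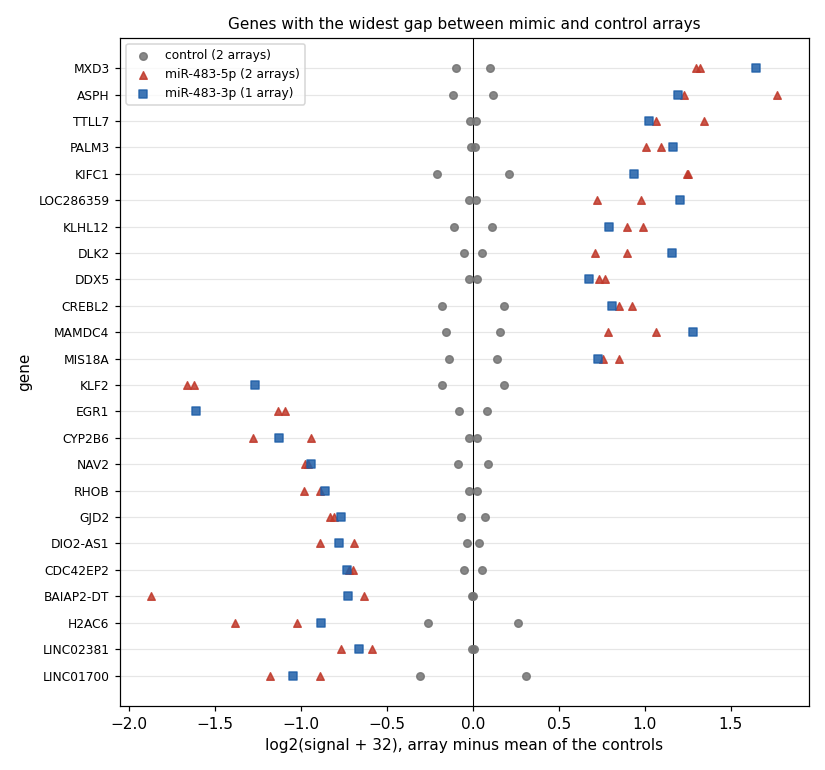
Signal of the 12 higher and the 12 lower genes with the widest gap between mimic and control arrays, as log2(signal + 32) minus the mean of the 2 controls (horizontal axis), with 1 point per array. Grey circles are the controls, red triangles the 2 miR-483-5p arrays and blue squares the miR-483-3p array. From MXD3 at the top to LINC01700 at the bottom, all 3 mimic points of each gene lie on the same side of both control points, as the choice of genes requires.

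The gene with the widest gap above the controls was MXD3, a repressor that binds DNA as a partner of MAX and counteracts MYC. Its signal was 95.6 and 97.7 with miR-483-5p, 131 with miR-483-3p, against 23.6 and 16.4 in the controls. Every mimic array was thus several times as bright as either control, and the log2 difference was 1.42 (SE 0.15), with a limma adjusted p of 0.625. The enzyme gene ASPH, whose product hydroxylates aspartate and asparagine residues of growth factor-like domains, had 1268 and 861 with miR-483-5p, 839.8 with miR-483-3p, against 382 and 319 in the controls, a difference of 1.40 (SE 0.21). The first miR-483-5p array was the brightest for ASPH. Its probe sets disagreed: a second, almost as bright, differed by 0.84, the third brightest by 0.01 with overlapping groups, and a dim probe set below both controls by -0.54.

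KIFC1, a kinesin motor that draws spindle poles and extra centrosomes together, is a cell division gene and is described with that group. KLHL12, the substrate adaptor of a CUL3 ubiquitin ligase, had signals of 854 and 799 with miR-483-5p, 739.5 with miR-483-3p, against 381 and 450.5 in the controls, and the pooled difference was 0.89 (SE 0.13). Its second, dimmer probe set differed by only 0.21, with overlapping groups. MIS18A, which prepares centromeres for new CENP-A histone, had 596, 556 and 545 in the mimic arrays and 284 and 350.5 in the controls, a difference of 0.78 (SE 0.13), with 0.43 and 0.37 in its other probe sets. For CREBL2, a small bZIP protein related to CREB factors, the signals were 449.5, 426 and 413 in the mimic arrays and 192 and 255 in the controls. The difference of CREBL2 was 0.86 (SE 0.14), and its other 2 probe sets, at 0.54 and 0.69, also lay above both controls. DDX5 encodes an RNA helicase that takes part in splicing and in microRNA processing, and its own probe set gave 288, 296 and 276 in the mimic arrays and 163 and 158 in the controls, a difference of 0.73 (SE 0.10). A far brighter probe set, listed for DDX5 together with MIR5047 and MIR3064, gave 6176, 5935 and 5678 in the mimic arrays and 5281 and 5195 in the controls. It too lay above both controls, but by only 0.18, so the size of the DDX5 difference depends on the probe set read.

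Dimmer genes made up the rest of the higher 12. TTLL7, an enzyme that adds glutamate chains to tubulin, had 56.7, 75.7 and 54.2 in the mimic arrays and 9.9 and 10.9 in the controls. The paralemmin gene PALM3 had 213, 198 and 225 in the mimic arrays and 83.8 and 81.8 in the controls, and DLK2, a transmembrane protein related to NOTCH ligands, had 66.8, 80.8 and 103 in the mimic arrays and 26.4 and 30.6 in the controls. The log2 differences of these 3 genes, which were chosen for their wide gaps, were 1.14, 1.09 and 0.92. LOC286359 and MAMDC4 complete the set with 0.97 and 1.04, from control signals of 9.6 to 19.9.

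Below the controls, the widest gaps belonged to a pair of transcription factors. KLF2, a zinc finger transcription factor, had 691 and 532 in the controls against 175 and 169.7 with miR-483-5p and 233 with miR-483-3p, a log2 difference of -1.52 (SE 0.18) and a limma adjusted p of 0.625. Its second, dimmer probe set went the other way, with 46.5, 50.5 and 55 in the mimic arrays and 45.1 and 43.7 in the controls and a difference of 0.11, so the KLF2 result rests on a single probe set. EGR1, another zinc finger factor of the early growth response, had 343 and 304 in the controls against 129.7 and 134 with miR-483-5p and 84 with miR-483-3p. The miR-483-3p array was the lowest for EGR1, the pooled difference was -1.28 (SE 0.19), and its other probe sets differed by -0.58 and -0.28, both below the controls. RHOB, whose product is a short-lived protein of endosomes, had 1656 and 1608 in the controls against 808 and 867 with miR-483-5p and 885 with miR-483-3p. Mimic and control arrays each lay close together, at 854 ± 40.5 (SD, n = 3) over the mimic arrays and 1632 ± 34.4 (SD, n = 2) over the controls, and the difference was -0.91 (SE 0.10), with -1.20 in its second bright probe set.

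H2AC6, a histone H2A gene, had 972 and 666 in the controls against 380.2 and 289 with miR-483-5p and 422 with miR-483-3p, and is taken up with the other histones. CYP2B6, a drug-metabolizing cytochrome P450, had 83.5 and 87 in the controls against 16.3 and 29.1 with miR-483-5p and 21.5 with miR-483-3p, a difference of -1.12, against -0.03 in another of its probe sets. NAV2, a microtubule-binding protein of neurite growth, had 56.3 and 67.4 in the controls against 15.6 and 16.2 with miR-483-5p and 16.8 with miR-483-3p, and its other probe sets, all dim, gave differences of both signs. The mimic arrays of these low genes were near the bottom of the signal range, so the sizes depend on the added 32. GJD2, a gap junction connexin of neurons, differed by -0.80 and CDC42EP2, an effector of the GTPase CDC42, by -0.72. The other 4 lower genes make noncoding RNAs: DIO2-AS1 (-0.79), LINC02381 (-0.67), LINC01700 (-1.04) and BAIAP2-DT (-1.08), the last with a first miR-483-5p array at 19.7 far under the second at 89.9. The limma adjusted p was 0.625 for 23 of the 24 genes and 0.713 for BAIAP2-DT. Of the 24, 14 have 36 further probe sets, of which 23 had the same sign as the one used and 13 lay on the same side of both controls. The narrowest gap kept was 0.593 among the higher genes, just ahead of LINC01547 at 0.586, and 0.579 among the lower, just ahead of RNA45SN5 at 0.570.

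Gene groups differed widely in how many members lay outside both controls. No gene of any of the 42 lists passed the limma test, so each list is given by counts, read against the background of 13.0% above and 14.0% below, and by its median, read against -0.01. The share above both controls was largest for genes of G2 and M phase at 77.8%, followed by the reported targets of miR-483-3p at 66.7% of only 6 genes, DNA replication at 57.6% and DNA repair at 50.0%. The share below was largest for the replication-dependent histones at 45.5%.

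**Figure D2:**
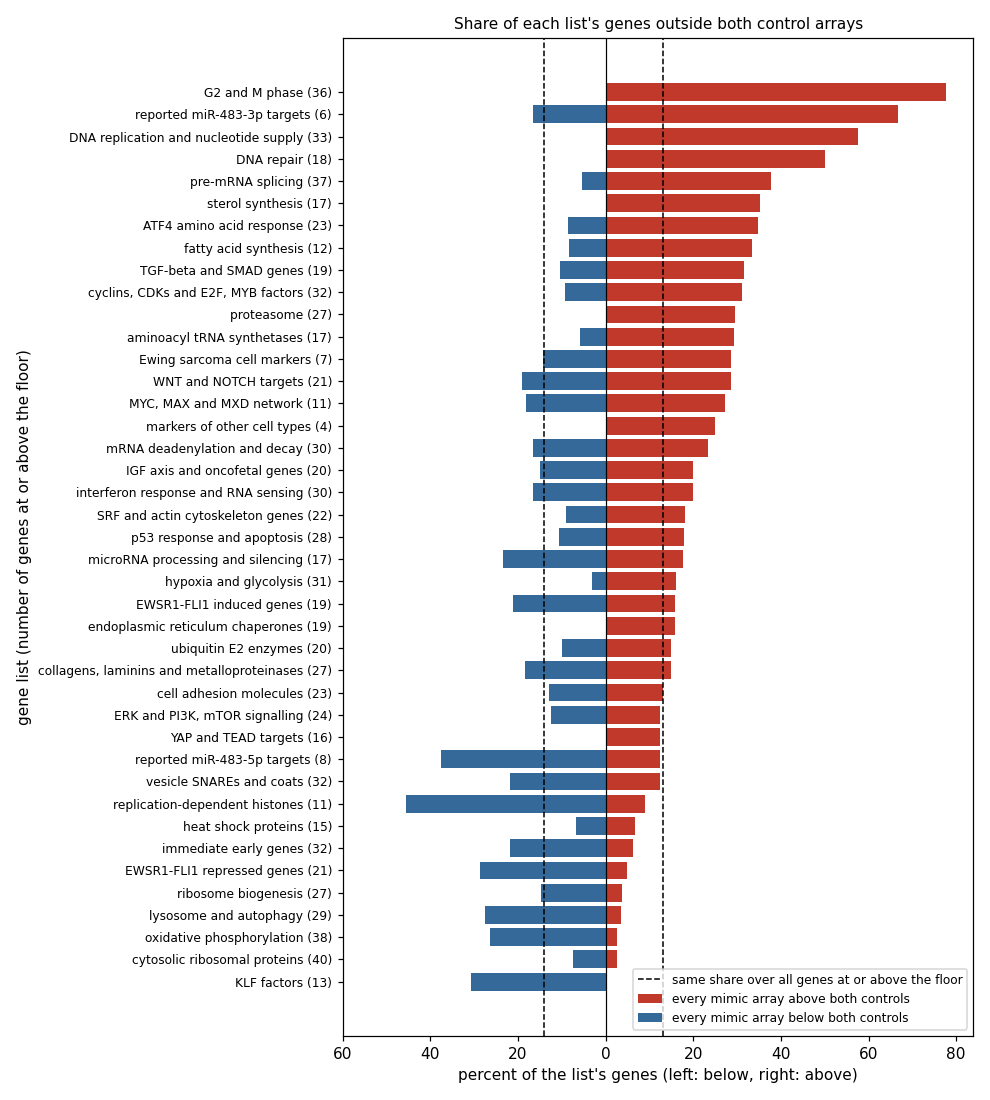
Share of the members of each gene list reported here (vertical axis, with the number at or above the floor) whose mimic arrays all lay above both controls (red, to the right) or all below both (blue, to the left), in percent. Dashed lines mark the same shares over all 14600 genes, 13.0% above and 14.0% below. Genes of G2 and M phase reach 77.8% above, and the replication-dependent histones 45.5% below.

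Most genes that carry cells through G2 and mitosis were higher in every mimic array. Of 36 measured, 28 lay above both controls and none below, and 34 had a positive difference. The median was 0.31, with 0.35 for miR-483-5p and 0.23 for the single miR-483-3p array, and 16 of the 36 were higher at an unadjusted p under 0.05 in the limma fit and none lower, where 4.61% of all genes at or above the floor were higher and 3.86% lower. Both arms are set against the same 2 controls, so their values are not independent of each other. Array by array, relative to the control mean, the list median was 0.47 and 0.31 for miR-483-5p, 0.23 for miR-483-3p and -0.04 and 0.04 for the controls. In a bulk culture, more cells in a phase and more RNA per cell cannot be told apart.

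KIFC1 stood highest in the group, with 473 ± 60.2 (SD, n = 3) over the mimic arrays and 198 ± 46.9 (SD, n = 2) over the controls. Its arrays read 509 and 507 with miR-483-5p, 404 with miR-483-3p, against 165 and 231 in the controls, and its difference was 1.15 (SE 0.18). The miR-483-3p array was the lowest of the mimics. MKI67, the proliferation antigen that coats mitotic chromosomes, had 589 and 631 with miR-483-5p, 537 with miR-483-3p, against 357 and 368 in the controls, a difference of 0.64 (SE 0.11). All 4 of its probe sets lay above both controls, with differences of 0.33 to 0.64. NDC80, the kinetochore protein that grips microtubules, had 833, 620.3 and 595 in the mimic arrays and 435 and 420.4 in the controls, a difference of 0.62 (SE 0.17), and the first miR-483-5p array stood apart above the other mimics. KIF11, the motor that pushes spindle poles apart, had 1137, 949 and 909 in the mimic arrays and 688 and 626 in the controls, a difference of 0.58 (SE 0.14). The mitotic kinase gene AURKA differed by 0.54, the spindle protein gene ASPM by 0.48 and ECT2, which starts the cleavage furrow, by 0.45, all 3 named after their values were seen. The 8 members whose groups overlapped were PLK1, AURKB, BUB1, CENPA, KIF20A, KIF2C, TPX2 and CDC20, named in the same way. PLK1 (-0.02), TPX2 (-0.03) and CENPA (0.03) stayed near 0, so not every member took part.

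**Figure D3:**
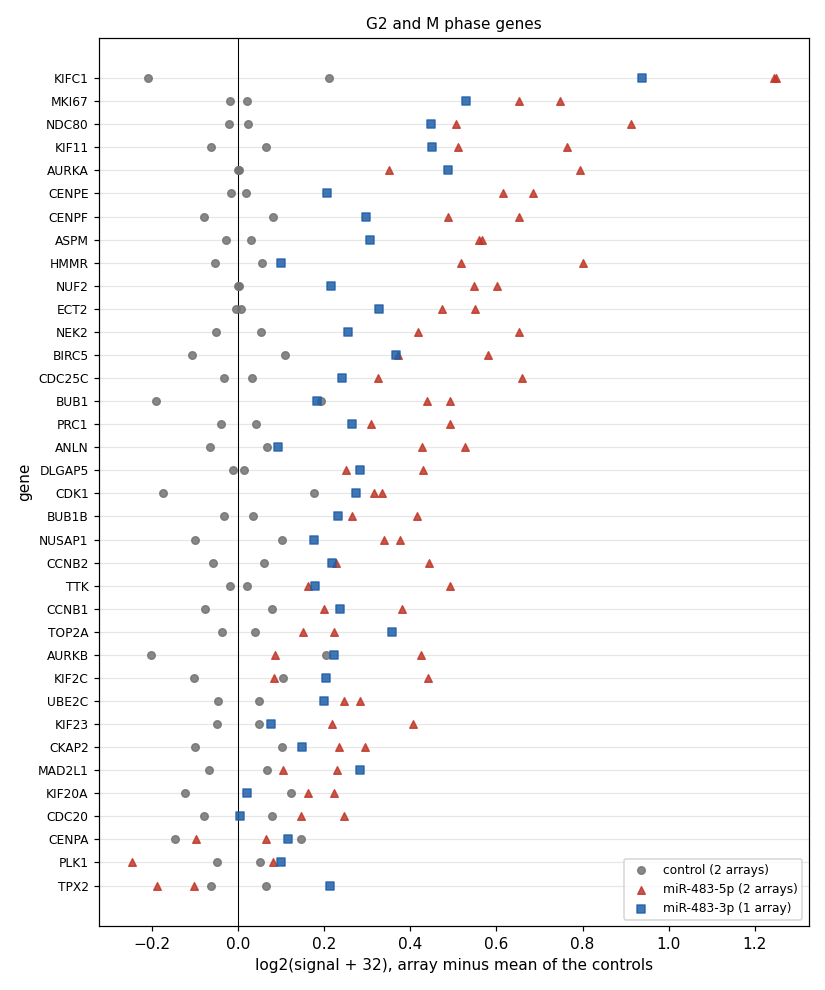
The 36 genes of G2 and M phase, ordered by their mean difference, as log2(signal + 32) minus the mean of the 2 controls, with 1 point per array. In 28 genes all mimic points (red triangles for miR-483-5p, blue squares for miR-483-3p) lie to the right of both control points (grey circles), and the miR-483-5p points reach farther than the miR-483-3p point in most of them.

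Promoters of this group are shown for KIFC1 and MKI67, since G2 and M genes are known for CCAAT boxes bound by NF-Y and for the cell cycle homology region (CHR) that recruits the DREAM and MYB-MuvB complexes. Sequences are the 250 bases before the first listed start of each gene, from RefSeq on GRCh38.p14, read 5′ to 3′ along the gene, with motif matches on either strand in capitals. KIFC1 lies at chr6:33391573-33391822 on the plus strand and MKI67 at chr10:128126424-128126673 on the minus strand.
KIFC1: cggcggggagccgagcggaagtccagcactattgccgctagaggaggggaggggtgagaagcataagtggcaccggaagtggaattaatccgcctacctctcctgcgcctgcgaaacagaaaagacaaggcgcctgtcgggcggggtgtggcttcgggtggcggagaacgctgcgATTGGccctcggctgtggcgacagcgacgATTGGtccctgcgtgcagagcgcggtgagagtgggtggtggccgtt
MKI67: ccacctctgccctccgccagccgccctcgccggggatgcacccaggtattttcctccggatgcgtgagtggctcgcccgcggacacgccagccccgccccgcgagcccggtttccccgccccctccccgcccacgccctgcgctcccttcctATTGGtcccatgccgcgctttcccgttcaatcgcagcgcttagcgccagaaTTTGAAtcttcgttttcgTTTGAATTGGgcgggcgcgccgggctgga
The search used CCAAT for the CCAAT box, TTTGAA for the CHR, TTTCCCGC or TTTGGCGC for an E2F site, ATTTGCAT for the histone octamer, TATAAA for the TATA box, TGACGTCA for the CRE, and the SRE by its consensus. KIFC1 holds CCAAT matches, both on the reverse strand, that begin 75 and 46 bases before the start, and no CHR match. MKI67 holds CHR matches that begin 47 and 29 bases before the start, the second of which shares its last base with a reverse CCAAT match. Of 31 promoters found for the 36 genes, 23 (74.2%) held a CCAAT match and 16 (51.6%) a CHR match. The shares were 33% and 13.6% over all 27305 promoters and 34.8% and 9.56% over the 11696 of genes at or above the floor. A match is a description of letters, not a measured site.

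Genes that copy DNA were higher as well, by less. Of 33 replication and nucleotide supply genes at or above the floor, 19 lay above both controls and none below, and 32 had a positive difference, with a median of 0.23. By arm the median was 0.19 for miR-483-5p and 0.28 for miR-483-3p. RRM1, the large subunit of ribonucleotide reductase, had 3527 and 3456 with miR-483-5p, 3066 with miR-483-3p, against 2259 and 2572 in the controls, a difference of 0.47 (SE 0.12). Its second probe set overlapped at 0.18. PCNA, the sliding clamp of DNA polymerases, had 2952 and 2538 with miR-483-5p, 3200.0 with miR-483-3p, against 2180.5 and 2047 in the controls, a difference of 0.44 (SE 0.14). CDC45, part of the replicative helicase, differed by 0.38, and the origin recognition subunit ORC6 by 0.33. This group leaned on the first control array, which was the lower: without it the median was 0.14, between first arrays alone it was 0.32, and between repeats alone 0.083. Repeats alone means the second miR-483-5p array against the second control. The miR-483-3p arm is absent from that value, and the labels do not pair these arrays. An E2F match was present in 11 of 31 promoters of the group (35.5%), against 1.96% of all promoters and 2.89% for genes at or above the floor. A CCAAT match was present in 19 (61.3%), against 33% and 34.8%.

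DNA repair followed the same direction, with 9 of 18 genes above both controls, none below and a median of 0.17. BRCA1, which works in repair by homologous recombination, had 250.2 and 243 with miR-483-5p, 259 with miR-483-3p, against 164 and 176 in the controls, a difference of 0.48 (SE 0.10). Mimic and control groups were each tight for BRCA1, which was chosen for its gap, and its second probe set overlapped at 0.18. FANCI, RAD51AP1 and BARD1, all of crosslink or recombination repair, differed by 0.43, 0.36 and 0.30. Among the regulators of the cycle, 10 of 32 cyclins, CDKs, E2F and MYB factors lay above and 3 below. MYBL1, a MYB family activator, had 263 and 249.7 with miR-483-5p, 136 with miR-483-3p, against 81.7 and 106 in the controls, so its difference of 0.94 came mostly from miR-483-5p (1.20 against 0.42 for miR-483-3p). Its second, dimmer probe set overlapped at -0.21. CCNE2, a cyclin of S phase entry, differed by 0.39, the repressor E2F8 by 0.46 and the phosphatase gene CDC25A by 0.54. A dimmer probe set of CCNE2 overlapped at -0.05, and those of CDC25A gave 0.22, above both controls, and -0.21, overlapping. The 3 below were CDC34, a ubiquitin-conjugating enzyme that serves the SCF ligase, CDKN1C, a CDK inhibitor, and CDK6. CDC34 had 377 and 386 with miR-483-5p, 582 with miR-483-3p, against 726 and 784 in the controls, which put the miR-483-3p array between the miR-483-5p arrays and the controls, and CDKN1C differed by -0.33 and CDK6 by -0.15. Dimmer probe sets of CDKN1C at or above the floor overlapped, at -0.22 to 0.02. Those of CDK6 gave 0.14, overlapping, and -0.28, below both controls. In the MYC, MAX and MXD network, 3 of 11 lay above (MXD3, MGA at 0.35 and MAX at 0.08) and 2 below (MLXIP at -0.53 and MYC at -0.19). MYC itself differed little, with 2321, 2467 and 2456 in the mimic arrays and 2673 and 2833 in the controls. MLXIP and MYC are named after their values were seen. A dimmer probe set of MGA lay below both controls at -0.44. The gap of MAX was only 0.02. Its dimmer probe sets gave 0.16, above both controls, and -0.45 to 0.15, overlapping.

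Replication-dependent histone genes went against the other cell cycle genes. These genes are copied in S phase, and most of their messages lack a poly(A) tail, which 3′ expression arrays prime from, so only messages with a tail are read well. Of 32 listed, 22 had a probe set of their own and 11 lay at or above the floor. Of these 11, 5 lay below both controls and 1, H2AC4, above, with a median of -0.53 (-0.49 for miR-483-5p and -0.61 for miR-483-3p). H2AC6 had 364 ± 68.4 (SD, n = 3) over the mimic arrays and 819.5 ± 216 (SD, n = 2) over the controls, a difference of -1.10 (SE 0.22). Its controls were far apart from each other, and its mimic arrays were lower than both, as the choice of genes requires. H2BC12 had 1195 and 929.9 in the controls against 759.5 and 667 with miR-483-5p and 673 with miR-483-3p, a difference of -0.57 (SE 0.15), and H2BC5 had 567 and 516 in the controls against 398 and 355 with miR-483-5p and 344 with miR-483-3p, a difference of -0.53 (SE 0.12), with -0.59 in its second probe set. In H2BC9 the miR-483-3p array was the lowest, with 144 and 151 in the controls against 96.4 and 90.5 with miR-483-5p and 41.1 with miR-483-3p. Near-identical histone genes can share probes, so the probe sets marked x_at, such as those of H2BC5 and H2BC9, may read several copies. H2AC4, named after its values were seen, differed by 0.22 from dim controls. Leaving out the first control array, which was the higher for H2AC6 and H2BC12, brought the list median to -0.24.

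The promoter of H2AC6 is shown because histone genes are known for octamer and CCAAT elements close to a TATA box. It lies at chr6:26123922-26124171 on the plus strand, GRCh38.p14.
H2AC6: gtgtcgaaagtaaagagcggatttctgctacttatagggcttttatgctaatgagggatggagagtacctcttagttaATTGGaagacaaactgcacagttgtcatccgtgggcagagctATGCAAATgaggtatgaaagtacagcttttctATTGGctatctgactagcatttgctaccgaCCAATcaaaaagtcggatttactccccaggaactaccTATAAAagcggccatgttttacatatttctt
The window holds 3 CCAAT matches, a reverse octamer match that begins 130 bases before the start and a TATA match that begins 31 bases before it. Among the 11 histone genes, 8 (72.7%) held a CCAAT match, 6 (54.5%) an octamer match and 7 (63.6%) a TATA match, against 33%, 1.66% and 11.1% of all promoters. For genes at or above the floor the shares were 34.8%, 1.33% and 6.56%. The histone shares cover every listed member at or above the floor with a promoter, whichever way its signals lay. No octamer match was found in the 31 promoters of the G2 and M phase genes, too few to tell that from the 1.66% of all promoters.

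Immediate early genes split. These genes are switched on within minutes by growth factors through ERK and SRF, and many encode transcription factors or their feedback inhibitors. Of 32 at or above the floor, 7 lay below both controls and 2 above, and the median was -0.05, close to that of all genes. Among those below, the 4 with the widest gaps were KLF2, EGR1, RHOB and FOS. FOS, a partner of JUN in AP-1, had 340.5 and 295 in the controls against 212 and 214 with miR-483-5p and 190.3 with miR-483-3p, a difference of -0.56 (SE 0.12), with the 3 mimic arrays close together. IER5, an early gene linked to heat shock factor activity, went the other way with 642 and 539 with miR-483-5p, 544 with miR-483-3p, against 354 and 378 in the controls, a difference of 0.60 (SE 0.12), and MCL1 by 0.27, both named after their values were seen. The median of the list was 0.03 without the miR-483-3p array, so the group as a whole had no settled sign. The feedback inhibitors of ERK in the list, DUSP1, DUSP5, DUSP6, SPRY1, SPRY2 and SPRY4, named for that role, overlapped with the controls.

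**Figure D4:**
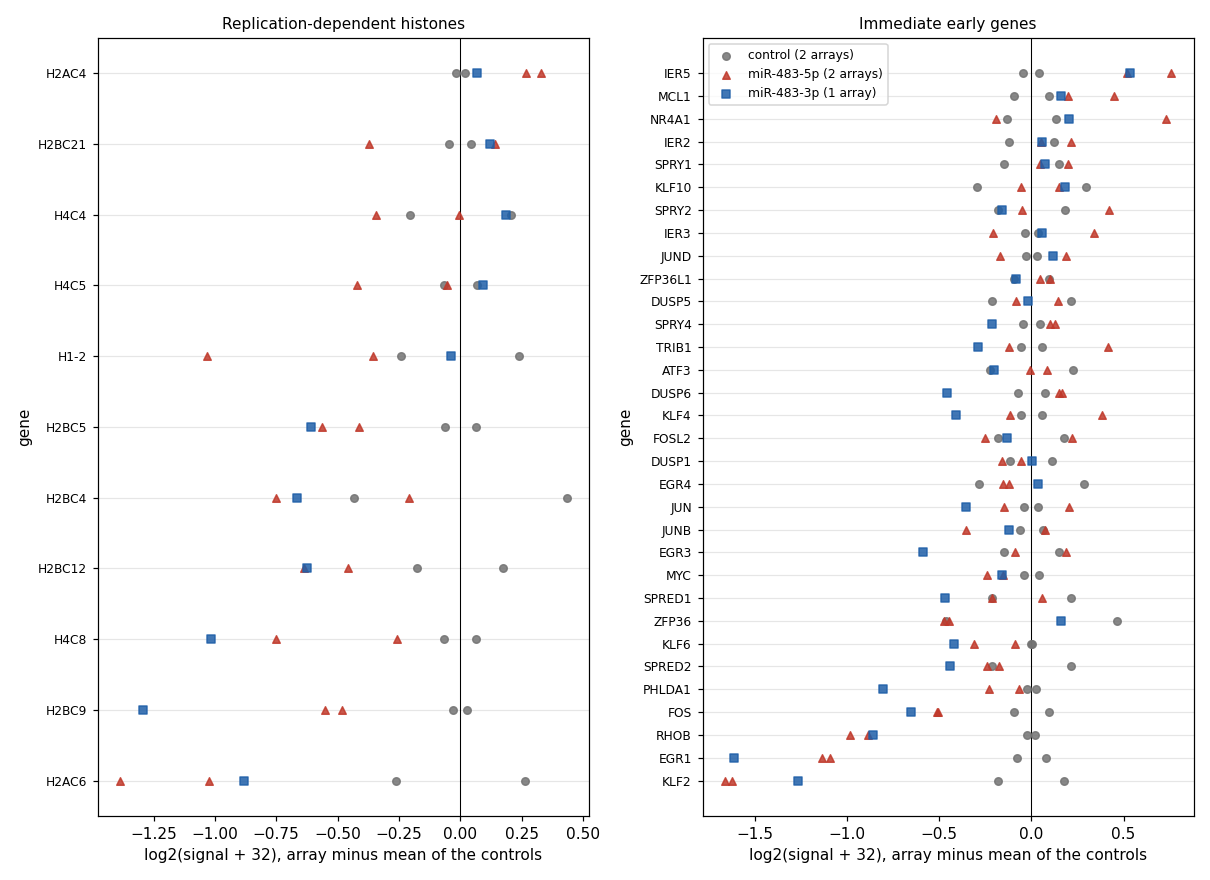
Replication-dependent histones (left) and immediate early genes (right) at or above the floor, as log2(signal + 32) minus the mean of the 2 controls, with 1 point per array. Grey circles are controls, red triangles miR-483-5p and blue squares miR-483-3p. H2AC6 is the lowest histone gene at -1.10, and KLF2, EGR1, RHOB and FOS stand apart at the lower end of the early genes while most others scatter around 0.

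The promoter of EGR1 shows the serum response elements that SRF and its ternary complex partners bind. It lies at chr5:138465229-138465478 on the plus strand, GRCh38.p14.
EGR1: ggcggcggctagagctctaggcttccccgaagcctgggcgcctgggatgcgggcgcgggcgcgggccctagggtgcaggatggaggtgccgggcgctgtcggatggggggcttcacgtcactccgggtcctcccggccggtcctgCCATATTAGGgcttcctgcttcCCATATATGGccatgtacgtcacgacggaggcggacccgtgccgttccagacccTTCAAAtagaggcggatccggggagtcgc
Its SRE matches begin 105 and 83 bases before the start, and a reverse CHR match begins 29 bases before it. Of 25 promoters found for the early genes, 1 held an SRE match (4%), that of EGR1. The share was 1.14% over all promoters and 1.08% for genes at or above the floor. SRF itself was higher, with 161 and 149.5 with miR-483-5p, 155 with miR-483-3p, against 104 and 102 in the controls, a difference of 0.47 (SE 0.10), and its second, dimmer probe set overlapped at -0.06. Among SRF and actin cytoskeleton genes 4 of 22 lay above and 2 below, near the background. Besides SRF, those above were CALD1 (0.18), CNN3 (0.34) and VCL (0.28). Dimmer probe sets of CALD1 and VCL lay below both controls instead, at -0.43 and -0.47, so neither gene has a settled direction.

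Of 13 KLF factors 4 lay below both controls and none above, although the list median was 0.05. KLF7 differed by -0.33, KLF6 by -0.27 and KLF3 by -0.20, far less than KLF2. KLF7 had 229 and 238 in the controls against 172 and 177 with miR-483-5p and 189 with miR-483-3p, and 3 of its 5 probe sets at or above the floor lay below both controls.

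YAP1, a coactivator of TEAD factors that drives growth, had 1e+03 and 966 with miR-483-5p, 854 with miR-483-3p, against 549 and 635 in the controls, a difference of 0.64 (SE 0.13), and is named after its values were seen. Few of its targets lay outside the controls: 2 of 16 YAP and TEAD genes lay above, YAP1 included, and none below. The other was AJUBA at 0.23, named for completing that count. Of 24 ERK, PI3K and mTOR genes 3 lay above (RICTOR, RPS6KB1 and PDPK1, at 0.39, 0.36 and 0.20) and 3 below. The latter were MLST8 (-0.27), EIF4EBP2 (-0.22) and AKT1S1 (-0.65), a brake on mTOR complex 1. Other probe sets of RICTOR, RPS6KB1 and PDPK1 at or above the floor overlapped, at 0.04 to 0.17. AKT1S1 differed by -0.93 with miR-483-5p and -0.08 with miR-483-3p in its brightest probe set, and by -0.77 and -0.37 in its second.

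IGF signalling genes showed no common direction, with 4 of 20 above both controls and 3 below. IGFBP3, which binds and holds IGF ligands, had 709 and 667 in the controls against 493 and 411 with miR-483-5p and 507 with miR-483-3p, a difference of -0.52 (SE 0.13), and its second probe set differed by -0.72. The receptor substrate IRS2 differed by -0.32 and the insulin receptor gene INSR by -0.41, while the substrate IRS1 differed by 0.23 and the adaptor GRB10 by 0.26. The probe sets of INSR disagreed: a second, of similar brightness, lay above both controls at 0.43. Dimmer probe sets of IRS1 overlapped, at 0.18 and -0.05. Those of GRB10 at or above the floor gave 0.10, overlapping, and 0.46, above both controls. The host gene IGF2 has only probe sets listed together with the readthrough INS-IGF2. The brightest of 3 had 469.8 and 356 with miR-483-5p, 236 with miR-483-3p, against 189 and 205 in the controls, and the next had 108 and 86.1 with miR-483-5p, 16.6 with miR-483-3p, against 13.3 and 12.8 in the controls. Both were above both controls in every mimic array, but the miR-483-3p array was close to the controls, and in the third, at 71.2 and 55 with miR-483-5p, 13.3 with miR-483-3p, against 9.4 and 13.6 in the controls, it lay between them.

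Genes reported elsewhere as targets of either arm were set beside the rest. Of 8 listed for miR-483-5p, ALCAM, TIMP2 and FIS1 lay below both controls in all mimic arrays, and SRF above. ALCAM, a cell adhesion molecule, had 464 and 462 with miR-483-5p, 691 with miR-483-3p, against 884 and 822 in the controls, and TIMP2, an inhibitor of metalloproteinases, had 1171 and 1180.4 with miR-483-5p, 1879.8 with miR-483-3p, against 2142 and 2073 in the controls. In both genes the miR-483-5p arrays were far below the controls and the miR-483-3p array lay in between, with -0.84 against -0.29 for ALCAM and -0.83 against -0.16 for TIMP2. The list median was -0.65 with miR-483-5p and 0.05 with miR-483-3p, so a pooled median of -0.42 is not a shared one. Of 6 listed for miR-483-3p, EI24, CTNNB1, CDC25A and IGF1 lay above both controls and SMAD4 below. The gap of IGF1 was only 0.01 at a dim signal, and its other probe sets at or above the floor overlapped, at -0.21 and 0.13. CDC25A also depended on the probe set, as given above. EI24, a membrane protein of the p53 response, had 1791 and 1617 with miR-483-5p, 1779 with miR-483-3p, against 1127 and 1276 in the controls, a difference of 0.52 (SE 0.12), with 0.54 in its second probe set. CTNNB1, the gene of beta-catenin, had 837 and 762 with miR-483-5p, 749 with miR-483-3p, against 614 and 654 in the controls, a difference of 0.29 (SE 0.11). Its dimmer probe sets overlapped, at 0.01 and 0.03. SMAD4, the common partner of TGF-beta signalling, differed by -0.14, and its dimmer probe sets overlapped with positive differences. GDF3 overlapped at -0.03, and SOCS3, listed for miR-483-5p, at 0.07.

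The machinery that both mimics enter was mixed, with 3 of 17 genes above and 4 below. AGO2, the Argonaute that can cut its target, had 803 and 671 in the controls against 464 and 435 with miR-483-5p and 430.4 with miR-483-3p, a difference of -0.69 (SE 0.12). AGO2 was chosen for its gap, and its mimic arrays lay close together. The probe sets listed for AGO2 together with other genes overlapped, at -0.25 to -0.06. AGO4 had 190.2 and 194 with miR-483-5p, 191 with miR-483-3p, against 136 and 127 in the controls, a difference of 0.45 (SE 0.10) in the opposite direction. Its dimmer probe sets at or above the floor gave 0.61, above both controls, and -0.14, overlapping. AGO1 and AGO3 differed by -0.13 and -0.19 (a dimmer probe set of AGO3 lay above both controls, at 0.09), PRKRA by -0.14, and the nuclear processing enzyme gene DROSHA by 0.23. In the decay of messages, 7 of 30 genes lay above and 5 below. DCP2, the enzyme that removes the cap, had 1138 and 935 with miR-483-5p, 793 with miR-483-3p, against 510.2 and 561 in the controls, a difference of 0.79 (SE 0.17), and all 4 of its probe sets at or above the floor lay above both controls, at 0.36 to 0.79. Its partners EDC4 and EDC3 went different ways, at 0.26 and -0.20, and the deadenylase subunit PAN2 differed by 0.38.

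Genes of pre-mRNA splicing were higher in number, if not by much: 14 of 37 lay above both controls (37.8%) and 2 below, with a median of 0.13. HNRNPA2B1, an RNA-binding protein of exon choice and RNA transport, had 7936 and 8313 with miR-483-5p, 7634 with miR-483-3p, against 5839 and 6029.5 in the controls, a difference of 0.42 (SE 0.10), and its other bright probe sets gave 0.54 and 0.41. HNRNPD, HNRNPM and PRPF3 differed by 0.27, 0.37 and 0.44, and the 2 below, PRPF8 and EFTUD2 of the U5 particle, by -0.17 and -0.18, named after their values were seen. Without the first control array the median was 0.06, and without the second 0.20. Of 27 proteasome genes 8 lay above and none below, among them PSMD3 (0.42) and PSMC3 (0.34). The proteasome median of the second control was 0.10, as high as that of the miR-483-3p array, so this group was not separated from the controls by its median.

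Genes of the amino acid response under ATF4, the factor that raises amino acid supply, lay above both controls in 8 of 23 cases and below in 2, with a median of 0.16. ASNS, which makes asparagine, had 1249.8 and 1091 with miR-483-5p, 1091 with miR-483-3p, against 828 and 876 in the controls, and PSAT1, of serine synthesis, had 3927 and 3808 with miR-483-5p, 3574 with miR-483-3p, against 2592 and 2920.1 in the controls. The stress protein gene NUPR1 had 151 and 157 with miR-483-5p, 142 with miR-483-3p, against 109.6 and 99.3 in the controls, and the 3 differed by 0.41, 0.45 and 0.41. In each the mimic arrays were clear of the brighter control, as the choice of genes requires. The transcription factor CEBPB (-0.24) and the amino acid transporter SLC7A5 (-0.41) were the 2 below, named after their values were seen. Between repeats alone, which hold no miR-483-3p array, the list median was 0.05. Transfer RNA synthetases, which ATF4 also drives, had 5 of 17 above and 1 below.

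Sterol synthesis genes lay above both controls in 6 of 17 cases and below in none, with a median of 0.18, but this was not even among arrays. The list median was 0.30 in the first miR-483-5p array, -0.08 in the second and 0.39 in the miR-483-3p array, against 0.09 and -0.09 in the controls, so the second miR-483-5p array overlapped with them. The median of 0.18 was 0.31 without the first control array, 0.27 without the second miR-483-5p array, 0.11 without the miR-483-3p array and 0.04 between repeats alone. PMVK, of the mevalonate steps, had 537 and 465 with miR-483-5p, 475 with miR-483-3p, against 327 and 384 in the controls, a difference of 0.44 (SE 0.13). IDI1, an isomerase of the same path, had 2611 and 1892 with miR-483-5p, 2489.9 with miR-483-3p, against 1742 and 1578 in the controls, a difference of 0.47 (SE 0.17), with 0.62 in an equally bright probe set and -0.21, below both controls, in a dimmer one. Fatty acid synthesis had 4 of 12 above and 1 below, led by the elongase gene ELOVL6 at 0.51. The 1 below was GPAM at -0.24, named after its values were seen.

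Genes of the responses to foreign RNA and to stress stayed close to the background. Of 30 interferon and RNA sensing genes 6 lay above and 5 below, with a median of 0.01. USP18, which restrains interferon signalling, had 185 and 190.5 with miR-483-5p, 191 with miR-483-3p, against 132 and 124 in the controls, a difference of 0.46 (SE 0.10), and IFI44 had 822 and 828 with miR-483-5p, 839 with miR-483-3p, against 561 and 666 in the controls, a difference of 0.42 (SE 0.12). ISG15 and OAS1, of the same response, were below at -0.35 and -0.17, so its genes differed in direction. Of 28 p53 and apoptosis genes 5 lay above and 3 below, including BCL2 at 0.32 and MDM2 at -0.28. Hypoxia and glycolysis had 5 of 31 above and 1 below, the glucose transporter gene SLC2A3 (-0.51). Heat shock proteins had 1 of 15 above and 1 below, HSPA9 at 0.14 and HSF1 at -0.24, which like SLC2A3 are named for completing a count, and endoplasmic reticulum chaperones 3 of 19 above and none below.

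Lysosome and autophagy genes tended to be lower, with 8 of 29 below both controls, 1 above and a median of -0.12, which was -0.07 without the second miR-483-5p array and -0.08 without the first control. CTSA, a lysosomal protease, had 679.5 and 539.8 in the controls against 469 and 340.2 with miR-483-5p and 454 with miR-483-3p, a difference of -0.51 (SE 0.18), and ATG12, which helps form autophagosomes, had 585 and 576 in the controls against 472 and 471 with miR-483-5p and 484 with miR-483-3p, a difference of -0.27 (SE 0.10). Both were lower in every mimic array, as the choice of genes requires. Of 38 nuclear genes of oxidative phosphorylation 10 lay below and 1 above, but by little: COX5B, a subunit of cytochrome c oxidase, differed by -0.24, with 0.85 in a far dimmer probe set, and the median of -0.07 became 0.02 between first arrays alone and -0.17 between repeats alone. Cytosolic ribosomal proteins had 3 of 40 below and 1 above, fewer than the background on both sides, and their controls differed from each other by more than the mimics did from their mean. Among vesicle SNAREs and coats 7 of 32 lay below and 4 above. VAMP3, a vesicle SNARE of recycling endosomes, had 2243 and 2278 in the controls against 739 and 1176 with miR-483-5p and 1640.4 with miR-483-3p, a difference of -0.98 (SE 0.32). The order was the same in all 3 bright probe sets of VAMP3, with differences of -0.75 and -1.04 in the others. Its relative VAMP2 was higher instead, with 331 and 289.5 with miR-483-5p, 258 with miR-483-3p, against 193 and 204 in the controls, a difference of 0.49 (SE 0.13), and STX6, a SNARE of the Golgi network, differed by -0.49.

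**Figure D5:**
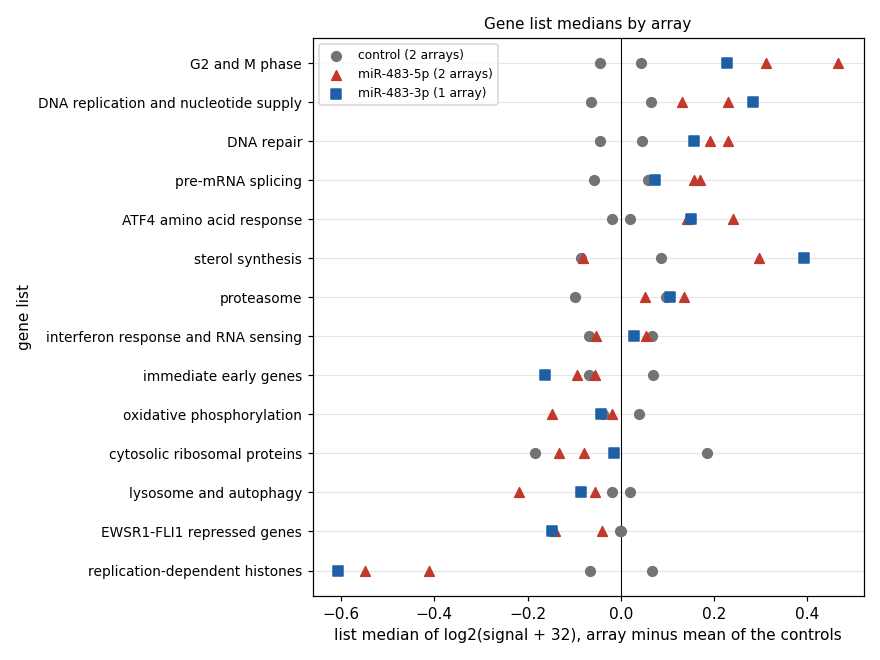
Median of log2(signal + 32) over the genes of 14 lists in each array, minus the mean of the 2 controls (horizontal axis), with 1 point per array. Grey circles are controls, red triangles miR-483-5p and blue squares miR-483-3p. All mimic points lie clear of both controls for G2 and M phase, replication, repair and histones, whereas sterol synthesis, proteasome and ribosomal proteins overlap with the controls.

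Genes induced by the fusion EWSR1-FLI1 showed no common direction, while those that it represses tended to be lower. Of 19 genes induced by EWSR1-FLI1 3 lay above and 4 below, with a median of -0.02. CCND1, the cyclin that these cells express strongly, had 6045 and 5717 with miR-483-5p, 5019 with miR-483-3p, against 4351 and 4566 in the controls, a difference of 0.32 (SE 0.12), and the cell cycle factor gene FOXM1 differed by 0.39. ID2, an inhibitor of bHLH factors, had 3637 and 4005 in the controls against 3006 and 3118 with miR-483-5p and 2939 with miR-483-3p, a difference of -0.33 (SE 0.11). Of 21 genes that the fusion represses 6 lay below and 1 above, with a median of -0.13, IGFBP3 being the widest. The others included the collagen genes COL1A1 (-0.28) and COL1A2 (-0.20), the WNT inhibitor gene DKK1 (-0.33) and TGFBI (-0.50), and the 1 above was fibronectin, FN1 (0.23). Without the second control array that median was -0.02. EWSR1, which makes the 5′ part of the fusion, had 1563 and 1415 with miR-483-5p, 1380.2 with miR-483-3p, against 1268 and 1082 in the controls, and FLI1, which makes the 3′ part, overlapped. Both are named for their part in the fusion.

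Among collagens, laminins and metalloproteinases 4 of 27 lay above and 5 below. The inhibitor TIMP1 had 1643 and 1526 in the controls against 1303 and 1094 with miR-483-5p and 1282 with miR-483-3p, a difference of -0.36 (SE 0.13), and the membrane protease MMP14 differed by 0.34. Cell adhesion molecules had 3 of 23 above (CADM1, MCAM and ITGAV, at 0.24, 0.28 and 0.13) and 3 below. The latter were ALCAM, NCAM1 (-0.22) and NRP2 (-0.15). Of 19 TGF-beta and SMAD genes 6 lay above and 2 below, ID2 and SMAD4. PMEPA1, a target that dampens the pathway, had 52.9 and 55.5 with miR-483-5p, 52.3 with miR-483-3p, against 35.9 and 33.7 in the controls, a difference of 0.36 (SE 0.10), and SMAD7, an inhibitor, and the ligand gene TGFB2 differed by 0.33 and 0.44. WNT and NOTCH genes had 6 of 21 above and 4 below, with CTNNB1, LEF1 (0.23) and JAG1 (0.26) on the upper side.

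How far the arms shared a size was asked in a separate fit. No probe set differed between miR-483-5p and miR-483-3p at a limma adjusted p under 0.05 (0 of 54613, or 0%, lowest 0.784), and 3427 (6.28%) had an unadjusted p under 0.05. The members lie on one side of the same 2 controls by the way they were chosen, so both arms share a sign in every member and their values are given only side by side. With miR-483-5p first, RHOB was at -0.94 and -0.86, SRF at 0.47 and 0.47, AGO4 at 0.45 and 0.44 and AGO2 at -0.67 and -0.73. VAMP3 was at -1.25 and -0.45, and H2BC9 at -0.52 and -1.29. The miR-483-3p side of each value rests on a single array.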

How the data were processed

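RNA of MHH-ES-1 was read on 5 Affymetrix HG-U133 Plus 2 arrays. Linear intensity per probe set was deposited, and the trimmed means (2% off each end) show that the authors scaled every array to 150. GCOS and Partek are named in the submitters' processing notes, and how signals were computed was not given in the sources used here. No detection calls were used, so which dim signals exceed background is not known.

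The 62 control probe sets were left out. Of 54613 probe sets, 41091 carry 1 gene symbol in the platform annotation, 1801 several and 11721 none, and 41037 of the first matched RefSeq (GRCh38.p14). Each gene was read from its brightest probe set, and 10523 genes had several. The floor was the 40th percentile of mean signal. Signals were used as log2(signal + 32). The mimic arrays were pooled against the controls with limma 3.58.1 in R 4.3.3, two-sided, with Benjamini-Hochberg adjustment over all probe sets and a threshold of 0.05, leaving 3 residual and 2.81 prior degrees of freedom. The fit was tested on simulated data. Gene lists carry no set test, and 1 list is not reported here. Named genes are the 12 widest gaps in each direction, the 4 widest of each list with at least 3 genes outside both controls on a side, the reported targets and IGF2, and exceptions are marked, apart from quality checks, cell markers and the genes next past the widest gaps. Members and lists were chosen with earlier results of these data known. Alternatives were other scalings, pseudocounts of 1 and 100, filters, variance priors, a replicate block, all probe sets of a gene, each array left out, and, added after seeing the data, first arrays or repeats alone. Figures were drawn with matplotlib 3.10.9.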

Additional observations from a re-analysis of the deposited data

Results flagged for a closer look

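MAPK3, the gene of the kinase ERK1 and listed as a reported target of miR-483-5p, is the gene named here for which the arms lay on opposite sides of the controls. Its signal was 125, 187 and 276 in the mimic arrays and 261 and 268 in the controls, the third mimic array being that of miR-483-3p. Both miR-483-5p arrays thus lay below both controls and the miR-483-3p array above both. The difference between the arms, miR-483-5p minus miR-483-3p, was -0.73 on the log2(signal + 32) scale. It did not pass the test of arm against arm (limma adjusted p = 0.788), with a single array on the miR-483-3p side.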

How the results depend on the processing

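No probe set passed the limma test in any of the 14 alternatives, including the replicate block of first arrays against repeats (0 calls, with 1701 higher and 1950 lower at an unadjusted p under 0.05), and the lowest adjusted p among them was 0.0867, with the filter at the 60th percentile. The labels give the groups no shared replicate numbers, and the differences of first arrays from repeats correlated at r = 0.17 across genes between the 2 pairs. The counts outside both controls, 5450 higher and 6742 lower, became 3028 and 3020 with the filter at the 60th percentile, which tests fewer probe sets, and 4367 lower at the 40th. Leaving out an array, which loosens the condition, gave 8234 to 13001 higher and 9349 to 14777 lower. With the medians of the arrays set equal they were 7245 and 4865. The replication median of 0.23 was 0.32 between first arrays alone and 0.083 between repeats alone, and 0.143 to 0.290 when an array was left out. The histone median of -0.53 was -0.39 with a pseudocount of 100 and -0.32 between repeats, and -0.61 to -0.24 when an array was left out. The immediate early median of -0.05 was -0.14 between first arrays and ran from -0.11 to 0.0296 when an array was left out, and that of oxidative phosphorylation was 0.02 and -0.17. Of 2797 values for 201 named genes 5 turned their sign: SOCS3 without the miR-483-3p array (-0.01 in a range up to 0.119 over arrays left out), and GDF3 with median centring (0.0052), the replicate block (0.019), without the second control (0.295) and without the miR-483-3p array (0.0435), in a range from -0.356. Most named genes were chosen for lying on one side of both controls. Leaving out an array or changing the pseudocount cannot turn their sign, so this count says little on their stability. Other list medians moved in 79 of 432 values. The causes of these moves were not tested beyond what the settings themselves fix. The limits are 5 arrays of 1 line, dose and time, a single miR-483-3p array, repeats of unknown origin, RNA integrity ratios that differ between the groups, and dim probe sets whose signal over background is not known.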
